A study of Mus musculus with 5 samples.

Results

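The 6 genes described here encode subunits of the NADPH oxidases: Cybb, Cyba, Ncf1, Ncf4, Nox4 and Rac2. They were taken by symbol from the 49315 genes of the count and TPM tables, and each symbol matched 1 row. RNA was sequenced as poly(A)-selected libraries from lung endothelial cell isolates of 3 WT samples and 2 TET2KO samples. TET2KO mice lacked TET2, an enzyme that oxidises 5-methylcytosine in DNA, in endothelial cells. All mice of both genotypes had been infused with angiotensin II, a vasoconstrictor hormone, for 28 days, so no group without the hormone was compared. The labels gave no age, strain or Cre driver, no deleted exons and no method of isolation. Whether libraries of a genotype stem from different mice is not stated there, and the p-values below reflect only library-to-library spread, which may be technical.

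NADPH oxidases pass electrons from NADPH across a membrane to oxygen and so make superoxide or hydrogen peroxide. In phagocytes the catalytic subunit NOX2, encoded by Cybb, sits in the membrane with its partner p22phox (Cyba), and is switched on when cytosolic subunits, including p47phox (Ncf1) and p40phox (Ncf4), and the small GTPase RAC2 join it. NOX4, the catalytic subunit best known from endothelium, also needs p22phox but not the cytosolic subunits, and is constitutively active. Angiotensin II is a known stimulus of vascular NADPH oxidases. Nox4 is therefore treated as the endothelial subunit, Cyba as the shared one, and Cybb, Ncf1, Ncf4 and Rac2 as those of phagocytes and other leukocytes.

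The sequence before the start site is shown for the catalytic subunits Nox4 and Cybb, their partner Cyba and the organiser Ncf1, because TET2 acts on methylated CpG dinucleotides and these genes differ widely in how many they carry there. RefSeq promoters (GRCm38.p6) were matched for 4 of the 6 genes, and Ncf4 and Rac2 were not in that table. Each line gives the 250 bases before the RefSeq start, 5′ to 3′ on the gene's own strand, with CpG dinucleotides in capitals.
Nox4 (chr7:87246399-87246648, plus strand): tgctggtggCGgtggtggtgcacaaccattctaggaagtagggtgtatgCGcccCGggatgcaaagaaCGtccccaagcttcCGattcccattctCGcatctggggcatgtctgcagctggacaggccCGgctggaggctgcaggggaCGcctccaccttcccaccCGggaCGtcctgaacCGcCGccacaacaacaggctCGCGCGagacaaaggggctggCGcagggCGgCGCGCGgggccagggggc
Cybb (chrX:9469325-9469574, minus strand): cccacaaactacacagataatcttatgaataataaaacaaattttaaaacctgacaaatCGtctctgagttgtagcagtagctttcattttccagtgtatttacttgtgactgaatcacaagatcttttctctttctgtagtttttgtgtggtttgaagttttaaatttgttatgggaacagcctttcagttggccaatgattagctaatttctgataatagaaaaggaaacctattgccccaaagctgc
Cyba (chr8:122432941-122433190, minus strand): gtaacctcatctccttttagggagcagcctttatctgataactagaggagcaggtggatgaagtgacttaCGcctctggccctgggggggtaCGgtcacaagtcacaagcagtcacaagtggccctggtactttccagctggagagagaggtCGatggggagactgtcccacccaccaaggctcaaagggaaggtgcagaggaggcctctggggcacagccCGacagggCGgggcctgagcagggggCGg
Ncf1 (chr5:134229626-134229875, minus strand): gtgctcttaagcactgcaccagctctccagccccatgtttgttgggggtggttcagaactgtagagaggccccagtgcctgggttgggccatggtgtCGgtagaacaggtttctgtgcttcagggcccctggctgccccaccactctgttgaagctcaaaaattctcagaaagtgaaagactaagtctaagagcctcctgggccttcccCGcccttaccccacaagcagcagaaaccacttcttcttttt
The Nox4 window held 20 CpGs, more than 82.1% of the 32851 promoters in the table, whose median was 6. The Cybb window held 1 CpG, and 7.87% of promoters had fewer. Cyba had 6 and Ncf1 had 2. GC content was 67.2% for Nox4, 34.0% for Cybb, 60% for Cyba and 54.4% for Ncf1. The windows of Cybb and Nox4 lie inside the longer GENCODE span of their own gene, and overlap of the windows with exons is not given here. On either strand, the GC box letters GGGCGG were present in the windows of Cyba, Ncf1 and Nox4 and in 32.7% of all promoters of the same length. The CCAAT letters were in that of Cybb and in 33.8% of all promoters. The letters GAGGAA, a form of the site of the myeloid factor PU.1, and the TATA letters TATAA were in 0 of the 4 windows. They were in 23.3% and 22.8% of all promoters. A search for exact letters misses other forms of a site, so it cannot show that a site is absent. DNA methylation was not measured in these files.

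Total counts ranged from 27346804 to 35440257 per library. The isolates held much leukocyte RNA: the 21 endothelial markers took 0.418% to 0.761% of counts in WT and 1.03% and 1.11% in TET2KO, and the 8 pan-leukocyte markers 0.540% to 0.622% and 0.472% and 0.469%. The summed TPM of the 11 alveolar macrophage markers was 72412 in WT replicate 2 and 8462 to 24993 in the other 4 libraries, while that of the 9 B cell markers was 1688 in WT replicate 2 and 4081 to 9192 elsewhere. The fold changes of the authors' deposited table did not follow the labels. Among 13759 genes with a mean of at least 50 normalized counts, 99.96% were within 0.05 of the log2 ratio of means for WT replicate 3 and both TET2KO libraries over WT replicates 1 and 2, against 15.7% for the labelled groups. Which assignment is right cannot be told from the files. The labels are used here, and values without WT replicate 2 or without WT replicate 3 are given where they matter.

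Subunits of the leukocyte oxidase were abundant in these isolates and Nox4 was close to the limit of counting. On the TPM scale, which corrects for gene length, the mean level over the 5 libraries was 646 for Cyba, 354 for Cybb, 319 for Rac2, 214 for Ncf1, 139 for Ncf4 and 0.340 for Nox4. Cyba was the highest and Nox4 the lowest in 5 of 5 libraries, and Cybb lay above Ncf1, and Ncf1 above Ncf4, in 5 of 5. The order of Cybb and Rac2 was not fixed, since Cybb was the higher in only 2 of 5 libraries, and Ncf1 exceeded Rac2 in 1. In TPM, Cybb exceeded Nox4 by 514-fold to 3050-fold within a library.

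**Figure D1:**
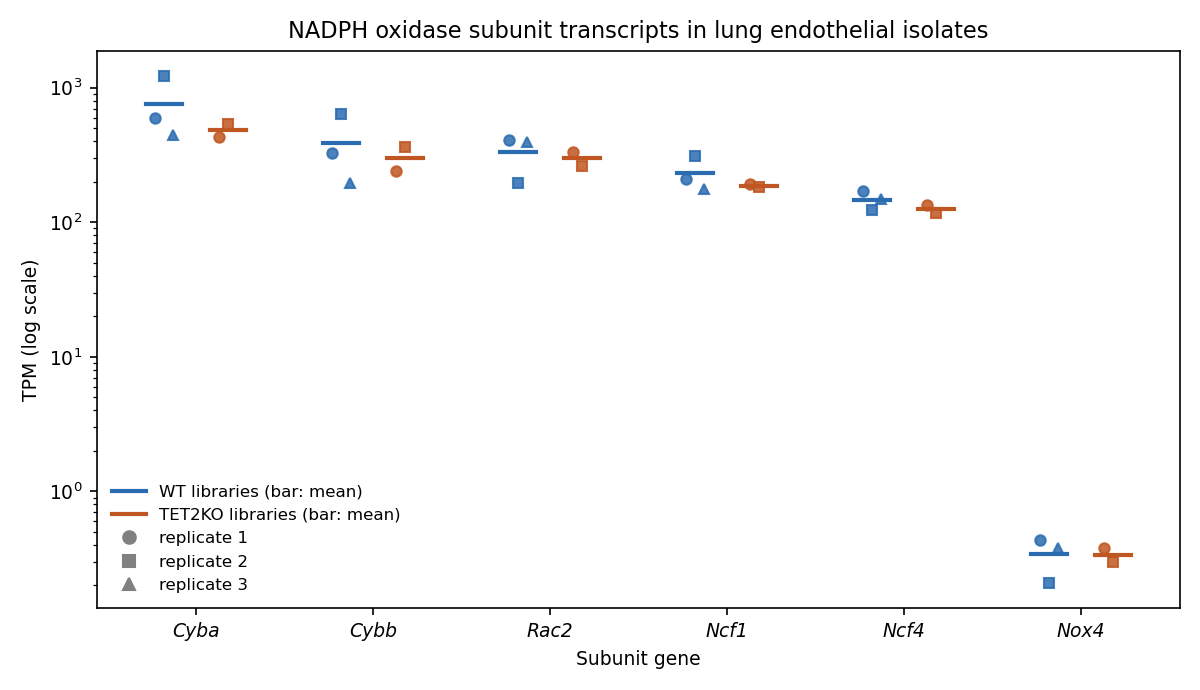
TPM on a log axis for the 6 subunit genes, with WT libraries in blue, TET2KO libraries in orange, a marker shape for each replicate number and a bar at each group mean. Cyba, Cybb, Rac2, Ncf1 and Ncf4 lie between 117 and 1220.0 TPM, and Nox4 between 0.210 and 0.434 TPM.

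Among the catalytic subunits, Nox4 (ENSMUSG00000030562, GRCm38 chromosome 7, 87246096 to 87398710, plus strand) was read 30, 20 and 30 times in WT replicates 1, 2 and 3. The TET2KO libraries gave 29 and 22 raw counts. With so few counts the exact 95% Poisson interval of a library ran from 20.2 to 42.8 for a count of 30 and from 12.2 to 30.9 for a count of 20, and all 5 intervals overlapped. These intervals cover counting error only. Its TPM was 0.434, 0.210 and 0.382 in WT and 0.378 and 0.297 in TET2KO, and between 78.1% and 85.2% of tested genes had a higher level in scaled counts. The TET2KO values lay inside the WT range. After TMM scaling to CPM, which relates each count to the scaled library total, the mean of Nox4 was 0.893 ± 0.195 over the WT libraries (SD, n = 3). Over the TET2KO libraries it was 0.783 ± 0.132 (SD, n = 2). Its log2 fold change, TET2KO over WT, was -0.19 (SE 0.38), with a 95% interval from -1.13 to 0.75 (edgeR quasi-likelihood test, adjusted p = 0.926). Leaving out WT replicates 1, 2 and 3 in turn gave -0.057, -0.33 and -0.11 for Nox4, and leaving out TET2KO replicates 1 and 2 gave -0.38 and -0.028. The interval includes a more than 2-fold decrease, so these libraries do not show that the level was alike.

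Cybb (ENSMUSG00000015340, chromosome X, 9435252 to 9487771, minus strand), the catalytic subunit of phagocytes, was at 329, 641 and 197 TPM in WT and at 242 and 362 TPM in TET2KO. WT replicate 2 was the highest and WT replicate 3 the lowest, with both TET2KO libraries between them. In TMM-scaled CPM the means were 766 ± 571 in WT (SD, n = 3) and 480.1 ± 135 in TET2KO (SD, n = 2). The log2 fold change was -0.67 (SE 0.64), with a 95% interval from -2.26 to 0.92 (edgeR adjusted p = 0.875). Without WT replicate 2 the log2 fold change of Cybb was 0.16, the other direction, without WT replicate 3 it was -1.01, and without TET2KO replicate 1 it was -0.41. The log2 ratio of Nox4 to Cybb in TPM sets the subunit treated as endothelial against the phagocyte one. It was -9.57, -11.57 and -9.01 in WT and -9.32 and -10.25 in TET2KO. The TET2KO values lay inside the WT range here too. The group means differed by 0.26 (two-sided exact permutation test, p = 0.9, with 0.1 the smallest value that 3 against 2 libraries allow).

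The shared partner Cyba (ENSMUSG00000006519, chromosome 8, 122424776 to 122432930, minus strand) was at 599.9, 1220.0 and 442 TPM in WT and at 434 and 535 TPM in TET2KO. The groups overlapped, since TET2KO replicate 2 lay above WT replicate 3. Cyba had the largest log2 fold change of the 6 genes, -0.94 (SE 0.58), with a 95% interval from -2.39 to 0.51 (edgeR adjusted p = 0.875). That value was -0.15 without WT replicate 2 and -1.24 without WT replicate 3. The ratio of Cyba to Cybb in TPM varied less than either gene: 1.82, 1.90 and 2.25 in WT against 1.79 and 1.48 in TET2KO. Both TET2KO ratios were the lowest, the nearer one by a small margin. The Cyba locus lies inside the span of Gm20388, annotated on the opposite strand, with 0 exonic bases shared.

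Of the cytosolic subunits, the organiser Ncf1 (ENSMUSG00000015950, chromosome 5, 134220053 to 134229625, minus strand) was at 209, 309 and 176 TPM in WT and at 191 and 182 TPM in TET2KO. WT replicate 2 was again the highest, and both TET2KO libraries lay between WT replicates 1 and 3. The log2 fold change of Ncf1 was -0.58 (SE 0.39; edgeR adjusted p = 0.875), and -0.09 without WT replicate 2. Ncf1 shares 408 exonic bases, 11.1% of its exonic length, with Gtf2ird2 on the opposite strand, and the strand setting of the counting is not given in the sources used here.

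Ncf4 (ENSMUSG00000071715, chromosome 15, 78244801 to 78262580, plus strand), which encodes the phosphoinositide-binding p40phox, had the narrowest interval of the 6 genes. Its TMM-scaled CPM was 98.5, 94.4 and 88.7 in WT and 74.8 and 64.6 in TET2KO. Both TET2KO libraries lay below all WT libraries on that scale, which was so for 1 of the 6 genes and for 12.4% of all genes tested, so a share of this size is near the background. In TPM the groups overlapped, with 170.4, 123 and 149 in WT and 135 and 117 in TET2KO. The log2 fold change was -0.43 (SE 0.16), with a 95% interval from -0.82 to -0.04. Its unadjusted p of 0.0349 failed the correction (edgeR adjusted p = 0.848), and 0.502% of tested genes were lower in TET2KO at an unadjusted p under 0.05. The value was -0.40 without WT replicate 2 and -0.44 without WT replicate 3. The 8 pan-leukocyte markers all had log2 fold changes below 0, with a median of -0.34. Their summed TPM was 4162 to 4433 in WT and 3633 and 3472 in TET2KO. Lists of single leukocyte types were mixed. Medians were 0.30 for neutrophils (6 of 10 tested above 0) and 0.21 for monocytes and interstitial macrophages (8 of 13). They were -0.93 for alveolar macrophages, -0.29 for B cells, -0.10 for dendritic cells and -0.04 for T and NK cells. The part of leukocytes in the Ncf4 difference was not tested. Per TPM of Ptprc, the leukocyte antigen CD45, Ncf4 was at 0.590, 0.710 and 0.575 in WT and at 0.562 and 0.503 in TET2KO. In bulk samples fewer cells of a type and less RNA per cell cannot be told apart.

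Rac2 (ENSMUSG00000033220, chromosome 15, 78559167 to 78572783, minus strand), the GTPase of blood cells that activates NOX2, was at 405, 196 and 396 TPM in WT and at 335 and 262 TPM in TET2KO. In TPM it was lowest in WT replicate 2, the library in which Cybb, Cyba and Ncf1 were highest. In TMM-scaled CPM it was lowest in TET2KO replicate 2, at 218 against 226 in WT replicate 2. The log2 fold change of Rac2 was -0.32 (SE 0.27), with a 95% interval from -0.998 to 0.35 (edgeR adjusted p = 0.875). Omitting WT replicate 2 or 3 moved Rac2 to -0.48 or -0.18, and omitting TET2KO replicate 1 or 2 to -0.51 or -0.16. The ratio of Rac2 to its ubiquitous relative Rac1 in TPM was 1.98, 0.845 and 2.14 in WT and 1.56 and 1.06 in TET2KO, so Rac2 was the lower of the pair only in WT replicate 2.

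The 4 leukocyte subunits and Cyba differed in their pattern across the libraries. In TMM-scaled CPM, WT replicate 2 exceeded the next highest library 2.46-fold for Cybb, 2.70-fold for Cyba and 1.97-fold for Ncf1. For Ncf4 it was the second highest, and for Rac2 the fourth of the 5. Centred on its mean log2 CPM, the root mean square difference over the 5 libraries was 0.19 between Cybb and Cyba, 0.35 between Cybb and Ncf1, 0.69 between Cybb and Ncf4 and 0.94 between Cybb and Rac2. The alveolar macrophage list had a median of 1.83 in WT replicate 2 on the centred scale, where Cybb was at 1.32, Cyba at 1.38 and Ncf1 at 0.91. The monocyte and interstitial macrophage list was at -0.67 in that library, in the other direction from Cybb, Cyba and Ncf1. The B cell list was at -1.22 and the T and NK cell list at -0.74 there, where Rac2 was at -0.31. The neutrophil list was at -0.04 in WT replicate 2, and its summed TPM was 279 to 868 over the 5 libraries. Within that list, Ly6g had 0 to 5 counts per library, and Csf3r was at 24.7 to 53.0 CPM. The part of any of these cell types in the levels of the subunits was not tested.

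**Figure D2:**
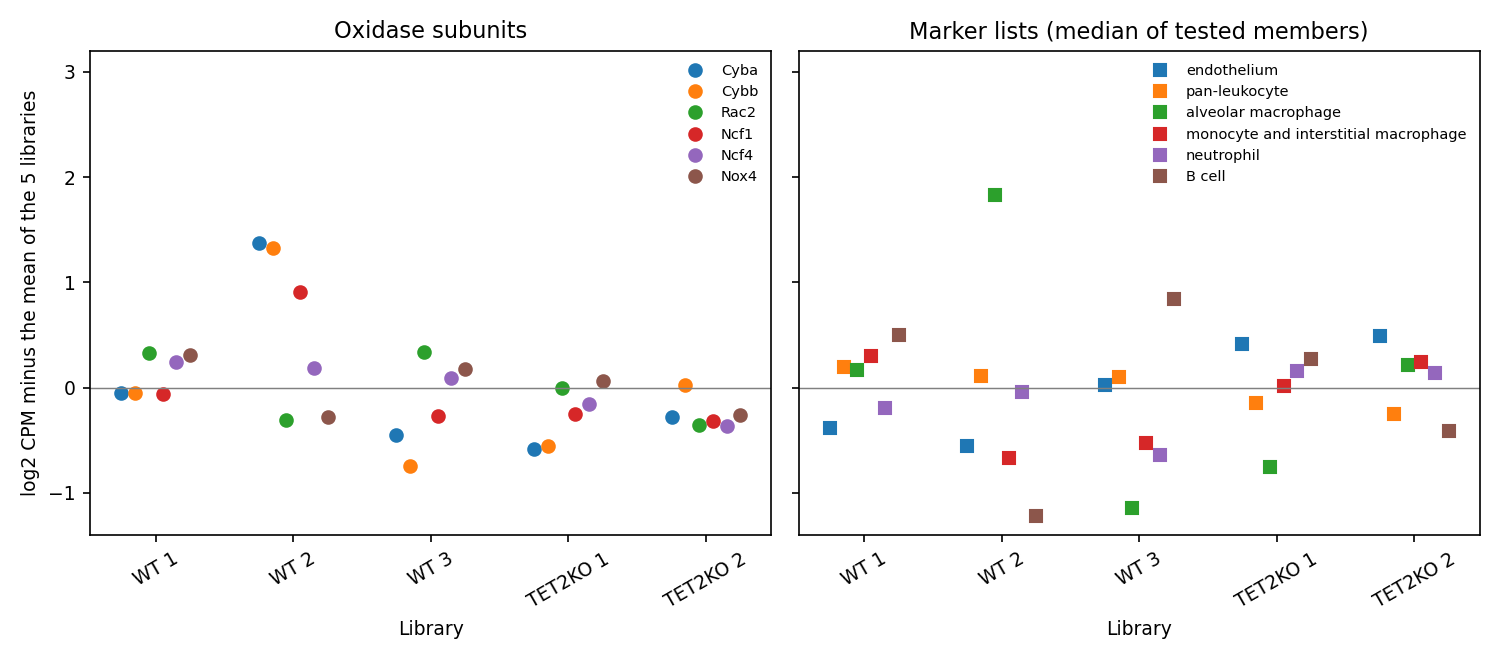
Log2 CPM of each subunit (left) and median of the tested genes of 6 marker lists (right), each minus its mean over the 5 libraries, by library. Cybb, Cyba and Ncf1 stand at 1.32, 1.38 and 0.91 in WT replicate 2 and the alveolar macrophage list at 1.83, while Rac2 and Nox4 are at -0.31 and -0.28 there.

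Among 8324 other genes with a mean log2 CPM of at least 4, those with a pattern much like Cybb included Mpp1 (root mean square difference 0.02 on the log2 scale over 5 libraries) and Tmem38b (0.05). For Cyba they included Capg (0.06) and Aprt (0.06), and the nearest to Ncf1 were Ctns (0.03), Tmem189 (0.04) and Zfyve26 (0.06). Sash3, Cpsf2 and Wipf1 were nearest to Ncf4 (0.02, 0.03 and 0.04), and Limd1, Herc4 and Rps3a2 to Rac2 (0.02, 0.03 and 0.04). Patterns over so few libraries are not rare: 172 genes were within 0.2 of Cyba, 321 of Cybb and 1945 of Ncf4. For Nox4, Ppdpf, Traf3 and 1110059E24Rik were nearest (0.02, 0.03 and 0.03), a likeness that rests on 20 to 30 Nox4 counts per library.

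All 6 subunits had log2 fold changes below 0 in the comparison of TET2KO with WT, with a median of -0.50. Of all 18727 tested genes, 10945 were below 0, and the median of all was -0.07. Without WT replicate 2 the median of the 6 was -0.24, with 5 of the 6 below 0, and the median of all genes was 0.005. On log2(TPM + 1) the median of the 6 was -0.22 and that of all genes 0.13. At an adjusted p under 0.05, edgeR called 0 of the 6, and 0% of all tested genes. At an unadjusted p under 0.05 it counted 1065 genes, Ncf4 alone among the 6. DESeq2 called 20 genes over the whole table and limma-voom 0, with 0 of the 6 in either. In the authors' deposited table, which follows the other assignment of WT replicate 3, the log2 fold change was -1.16 for Cybb, -1.25 for Cyba and -0.77 for Ncf1, with deposited adjusted p of 0.148, 0.0924 and 0.211. The authors' deposited table gave -0.33 for Ncf4, -0.02 for Nox4 and -0.01 for Rac2, with adjusted p of 0.529 for Ncf4 and 0.992 for Rac2 and none for Nox4.

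The subunits were also set against the endothelial markers, which had a median log2 fold change of 0.75, with 21 of 21 above 0 and 19 of 21 higher in both TET2KO libraries than in all WT libraries, against 12.4% of all genes tested. Markers of other non-leukocyte cells had medians above 0 as well: 1.71 for mesothelium (7 of 8 genes higher without overlap), 0.86 for epithelium (5 of 11), 0.45 for fibroblasts (3 of 10) and 0.44 for pericytes and smooth muscle (3 of 8 tested). edgeR called 0 genes of these lists. The estimate for Nox4 had the other sign. Per 1000 TPM of Cdh5, the endothelial cadherin, it was at 0.830, 0.693 and 0.497 TPM in WT and at 0.346 and 0.294 TPM in TET2KO. Per 1000 TPM of Pecam1, the endothelial adhesion gene, it was at 1.196, 1.196 and 0.870 in WT and at 0.658 and 0.507 in TET2KO. Both TET2KO libraries were below all WT libraries in these ratios. The same held for Cyba: its ratio to Cdh5 in TPM was 1.15, 4.02 and 0.574 in WT and 0.397 and 0.530 in TET2KO. Cdh5 itself was at 523, 303 and 770 TPM in WT and at 1091 and 1010 TPM in TET2KO. Pecam1 was also higher in both TET2KO libraries. A gene of unchanged level would thus be lower in such ratios too, and the share of all genes for which this was so was not counted. Ratios to Cdh5 were taken for Nox4 and Cyba only, so they do not set these genes apart from the other subunits. Scaled on the endothelium list, the log2 fold change of Nox4 was -0.93 (edgeR adjusted p = 0.160), the smallest of the 6 in size. It was -1.06 for Rac2, -1.21 for Ncf4, -1.42 for Ncf1, -1.58 for Cybb and -1.83 for Cyba, and the median of all tested genes was then -0.84. Scaled on the pan-leukocyte list, the log2 fold change was 0.23 for Nox4, 0.085 for Rac2, 0.018 for Ncf4, -0.05 for Ncf1, -0.10 for Cybb and -0.38 for Cyba, and the median of all tested genes was 0.37.

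**Figure D3:**
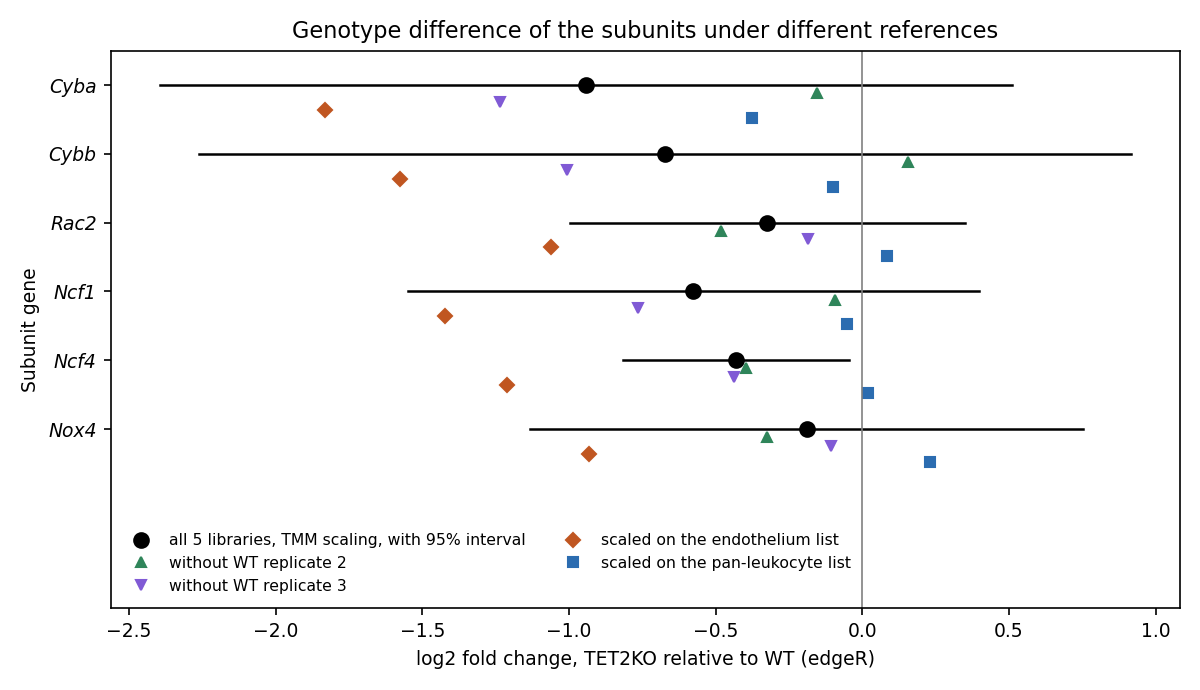
Log2 fold change of each subunit, TET2KO relative to WT, from edgeR: black points and lines are the value with all 5 libraries and its 95% interval, coloured markers the values without WT replicate 2 or 3 and with scaling on 2 marker lists. The interval of Ncf4, from -0.82 to -0.04, is the only one of the 6 that does not include 0, and Cybb is at 0.16 without WT replicate 2.

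**Figure D4:**
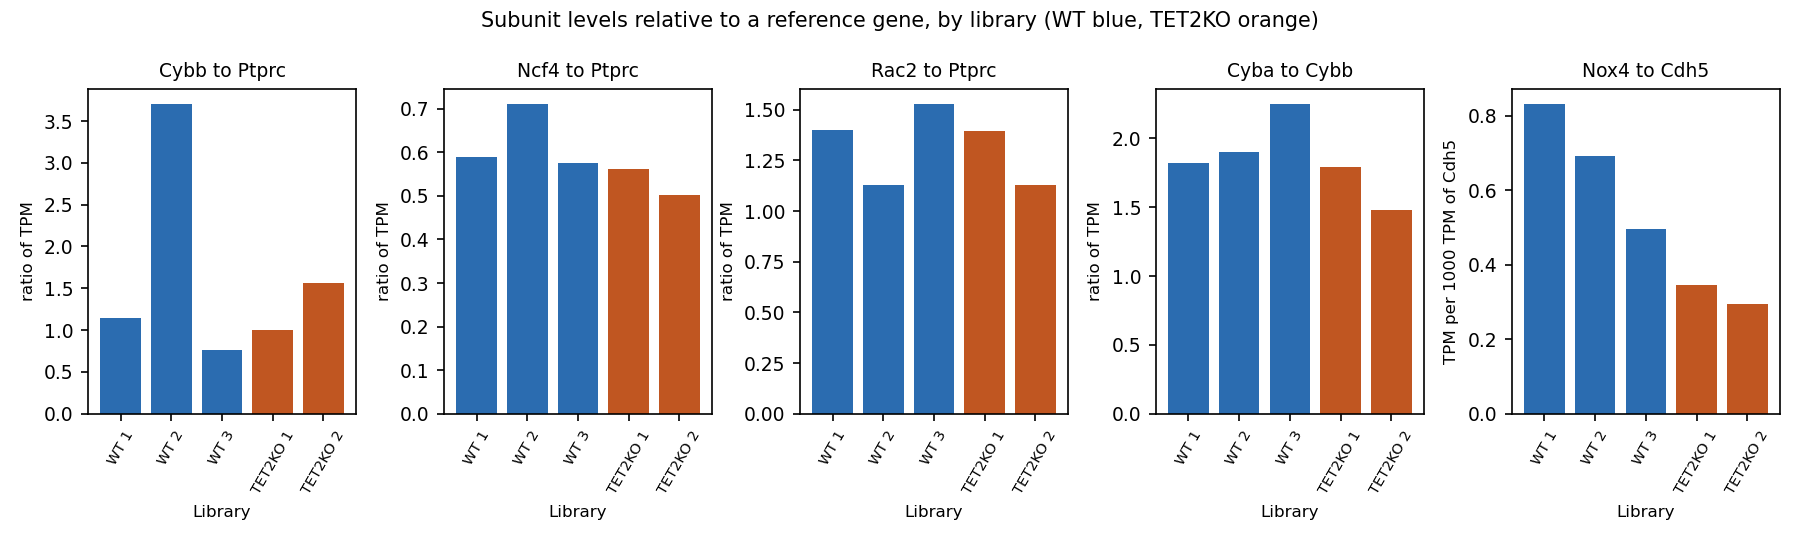
Ratio of a subunit to a reference gene in TPM, 1 bar per library, WT in blue and TET2KO in orange, with axes from 0. Cybb to Ptprc is highest in WT replicate 2 at 3.70, Ncf4 to Ptprc is 0.575 to 0.710 in WT and 0.562 and 0.503 in TET2KO, and Nox4 per 1000 TPM of Cdh5 is 0.497 to 0.830 in WT and 0.346 and 0.294 in TET2KO.

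Of the 39 other genes of the oxidase and superoxide lists, 38 were in the count table and 30 were tested. edgeR called 0 of them in either direction, and 23 had log2 fold changes below 0, against 10945 of all 18727 tested genes. Among other catalytic subunits, Nox1 was at 0.269 to 1.40 TPM in WT and 1.00 and 0.622 TPM in TET2KO, above Nox4 within each of the 5 libraries. That order rests on few reads, since Nox1 had 18, 10 and 43 counts in WT and 30 and 18 in TET2KO. In raw counts Nox4 was the higher in WT replicates 1 and 2 and in TET2KO replicate 2. Duox2, a peroxide-producing relative, was at 0.421 to 1.08 TPM in WT and 0.9997 and 0.964 TPM in TET2KO. Nox3 had 0 counts in every library, which allows up to 3 counts. Noxo1, the organiser of NOX1, was at 1.04 to 2.01 TPM over the 5 libraries. Poldip2, which binds p22phox and raises NOX4 activity, was at 22.8 to 27.6 TPM. Of the angiotensin II receptors, Agtr1a had 3 to 8 counts per library, Agtr1b 0 or 1 and Agtr2 0.

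In the list for assembly and activation of the oxidase, 13 of 16 tested genes had log2 fold changes below 0, with a median of -0.42. Over all 18727 tested genes this was so for 10945. For 8 of the 16 both TET2KO libraries lay below all WT libraries in TMM-scaled CPM, against 12.4% of all genes tested. In TPM this was so for 3 of the 16, against 2.3% of all genes, and 3 of the 16 were higher, against 20.8% of all genes. Many of these genes are expressed throughout leukocytes, and the same held for 4 of the 8 pan-leukocyte markers in TMM-scaled CPM. Hvcn1, the proton channel that carries the charge compensation of NOX2, had the smallest p of the list. It was at 186, 186 and 190.3 TPM in WT and at 137 and 108 TPM in TET2KO, with no overlap on either scale. The log2 fold change of Hvcn1 was -0.84 (SE 0.22; edgeR adjusted p = 0.778). Vav1, the exchange factor that activates RAC in blood cells and a member of both lists, had a log2 fold change of -0.46 (SE 0.17; edgeR adjusted p = 0.856). S100a9, a calcium-binding protein of myeloid cells, had the largest log2 fold change of the list and in the other direction, 1.24 (SE 0.49; unadjusted p = 0.048; edgeR adjusted p = 0.875). S100a9 was at 41.3, 20.97 and 53.2 TPM in WT and at 55.4 and 148 TPM in TET2KO. Its highest value was in TET2KO replicate 2, and the groups overlapped in TMM-scaled CPM. S100a8, a gene of the same list, had a log2 fold change of -0.55 (SE 0.99; edgeR adjusted p = 0.919). That gene was at 21.2, 96.1 and 17.7 TPM in WT and at 21.6 and 57.5 TPM in TET2KO. Tiam1, a RAC exchange factor of many tissues, was at 7.27, 2.25 and 5.98 TPM in WT and at 7.72 and 8.79 TPM in TET2KO, higher in both TET2KO libraries. Of the enzymes that remove superoxide and peroxide, catalase (Cat) was at 148 to 271 TPM in WT and at 148 and 149.95 TPM in TET2KO. The extracellular superoxide dismutase Sod3 was at 1.52 to 4.95 TPM in WT and at 6.11 and 6.11 TPM in TET2KO, a log2 fold change of 0.82 (SE 0.41; edgeR adjusted p = 0.875).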

How the data were processed

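RNA was measured in 3 WT and 2 TET2KO libraries, grouped by their titles. Per the submitters' processing notes, build GRCm38 was used with STAR 2.5.2b, Trimmomatic 0.36, Subread 1.5.2 (featureCounts) and DESeq2; the strand setting is not given in the sources used here. The authors deposited whole-number counts per gene, TPM values, and a comparison table of 18019 genes with p-values, raw and adjusted, and log2 fold changes, per the file headers. The same deposited table held counts divided by 1 size factor per library, a normalized signal. A further deposited table, a subset of those rows, was not used, which leaves 5 per-library columns unused.

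Counts were fitted with edgeR 4.0.16 in R 4.3.3 (quasi-likelihood F test, TMM scaling, filterByExpr, genotype as the only term), with Benjamini-Hochberg adjustment over the 18727 genes tested and a threshold of 0.05. The biological coefficient of variation was 0.339. Standard errors were the log2 fold change over the square root of F, and 95% intervals used the t quantile of the fit. Log2 CPM used a prior count of 2. Gene positions are from GENCODE M21 (GRCm38), where 49056 of 49315 identifiers were found. The members and lists were chosen with earlier results of these data known. By the rule for named genes, all members are named, any tested gene of the other oxidase lists and the defining cell type markers may be, and for each member the 5 genes with the most alike pattern (mean log2 CPM of at least 4) are taken, of which up to 3 among the nearest are printed. Some genes that the rule names are not reported here. Genes of these lists that were counted but not tested are given as raw levels. Alternatives were DESeq2 1.42.0, limma-voom and limma 3.58.1 on log2(TPM + 1) or log2(TPM + 0.1), other scalings and filters, each library left out, and the replicate number as a block. Counts of groups that do not overlap were repeated on TPM and without WT replicate 2 or 3 after the data were seen. The edgeR script was tested on simulated data.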

Additional observations from a re-analysis of the deposited data

How the results depend on the processing

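The log2 fold changes of the 6 subunits kept their direction and stayed short of the threshold in 96 of 101 alternative values. Scaled on the pan-leukocyte list, the direction was reversed for Nox4 (0.23), Rac2 (0.085) and Ncf4 (0.018), and on log2(TPM + 0.1) it was reversed for Nox4 (0.016); by its construction the first shifts the median of all genes by 0.44, and the cause of the other was not tested. Over the libraries left out in turn, Cybb ran from -1.01 to 0.16, reversed without WT replicate 2, and the Nox4 to Cybb difference from -0.50 to 0.78, reversed without WT replicate 2 and, at -0.20, without TET2KO replicate 1. The medians of all genes moved by 0.14 with library totals, 0.21 and 0.24 on log2(TPM + 1) and log2(TPM + 0.1), and -0.76 when scaled on the endothelium list. DESeq2 called 20 genes where edgeR called 0, and 0 of the 6. Nox4 has no value with at least 1 CPM in 2 libraries, since it did not pass that filter. Counts of subunits below all WT libraries were 1 on TMM-scaled CPM, 0 on TPM, 3 without WT replicate 2 (Ncf4, Nox4 and Rac2, against 24.2% of all genes) and 3 without WT replicate 3 (Cyba, Ncf1 and Ncf4, against 23% of all genes). At 20 to 30 counts per library, depth limits Nox4.

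The groups share replicate numbers 1 and 2, but the labels do not say that a number marks a shared animal or batch. Deviations from group means correlated across genes at 0.22 for number 1 and 0.49 for number 2, and at 0.45 for WT replicate 3 with TET2KO replicate 1. With only 2 TET2KO libraries, the deviations of one are the negative of those of the other. The same WT libraries therefore gave -0.22, -0.49 and -0.45 with the other TET2KO library, and these correlations cannot show whether numbers pair. With the replicate block, the log2 fold change was -0.90 for Cybb, -1.10 for Cyba, -0.71 for Ncf1, -0.47 for Ncf4, -0.12 for Nox4 and -0.19 for Rac2, and 0 genes were called. No TET2KO library shares the number of WT replicate 3, so that library adds nothing to these values. With so few libraries left, the count of 0 says little.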
